A study of Mus musculus with 10 samples.

Results

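The libraries described here are the 4 whose labels name tamoxifen (TAM) without DMBA, out of 10 in the series: 2 labelled TAM long and 2 labelled TAM short. They were chosen by their labels alone. All 47069 genes of the count table were read, 24060 of them had a count in at least 1 of the 4 libraries, and 16179 passed the filter on low counts and were tested. By the labels and the study's text, the samples were organoids grown from C57BL/6 mouse intestine for 50 days in Matrigel with Noggin, EGF and R-spondin-1. The study made them from mice with the Lgr5-EGFP-CreERT2 transgene and 2 floxed alleles of Ppp2r1a (flox/flox). All 4 libraries therefore share the floxed alleles, the Cre transgene, the medium, the culture time and the word tamoxifen, and differ in the word short or long, which the labels and the paper leave undefined. The labels call the tamoxifen of both groups dosage-sensitive, without a dose. Control libraries carry the same alleles and had saline in place of tamoxifen, and DMBA libraries, whose label also holds the word Long, had the carcinogen DMBA. The Cre is driven by the promoter of Lgr5, a gene of crypt stem cells, so tamoxifen can delete Ppp2r1a only in cells that use that promoter and in their progeny. Nothing in the labels says whether the 2 libraries of a group came from separate mice or cultures, so the p-values measure the spread between these libraries, which may be technical. The library names hold DSS_L for TAM long and DSS_S for TAM short. The labels do not explain these letters, and the study's text spells DSS out as dextran sulfate sodium without tying it to these libraries.

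Counts on genes were 10923673 and 9737176 in TAM long and 9837309 and 8828247 in TAM short. Values below are counts scaled by TMM-adjusted library totals (normalized CPM), given in the order replicate 1 and replicate 2, and fold changes are TAM long over TAM short on the log2 scale, with p-values of the quasi-likelihood test in edgeR, adjusted by Benjamini-Hochberg over the 16179 genes. The same threshold of 0.05 was used throughout. Where a gene lost its call when 1 of the 4 TAM libraries was left out, that library is named beside it as short 1, short 2, long 1 or long 2, as are DESeq2 and library size scaling where they ended the call. Replicates of TAM long agreed less well (Pearson r of 0.986 on log2(FPKM + 1) across genes) than those of TAM short (0.991). Those of DMBA, which enter the same fit, agreed less well than either (0.972). Genes that differ widely between the 2 TAM long libraries are named as they come up. In a principal component analysis of all 10 libraries, the second component (23.6% of the variance) had TAM long at 77.6 and 90.1 beside DMBA at 86.7 and 87.3, and TAM short at -60.6 and -60.3 beside control at -74.1 and -80.0. TAM long thus lay with DMBA and TAM short with control on that axis. The DMBA label holds the word Long as the TAM long label does, and as with the TAM groups the names of the DMBA libraries hold an L and those of the control libraries an S.

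Ppp2r1a (ENSMUSG00000007564, chr17:20945311-20965916 of GRCm38), the scaffold subunit of protein phosphatase 2A that the Cre removes, had 169 and 157 normalized CPM in TAM long and 130.3 and 147 in TAM short. Control libraries had 123 and 129. The gene was detected at a similar level in all of these libraries, and its difference did not pass the test (log2 fold change 0.23, SE 0.11, adjusted p = 0.122). The counts are sums over all exons, so they do not measure the floxed exons by themselves, and loss of those exons was not tested. The study's own measure of deletion was a western blot of PPP2R1A protein in sorted Lgr5+ and Lgr5- cells, which is unlike RNA of whole samples. General genes of epithelium were high in all 4 libraries. Krt8, a keratin of simple epithelia, had 5362 and 5961 normalized CPM in TAM long and 6854 and 7235 in TAM short (log2 fold change -0.32, adjusted p = 0.161), and Epcam, an adhesion molecule of epithelial cells that was chosen after its values were seen, had 1664 and 1721 normalized CPM in TAM long and 3034 and 3079 in TAM short (log2 fold change -0.85, adjusted p = 0.000739). Defining markers of epithelium were thus present in all 4 libraries, beside markers of smooth muscle, fibroblasts and lymphocytes that are given below.

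The mammalian intestine changes its work along its length. Enterocytes of the small intestine digest sugars and peptides on their brush border and pack dietary fat into lipoproteins, the ileum takes bile acids back up, and Paneth cells at the bottom of small intestinal crypts secrete antimicrobial defensins. The colon has no Paneth cells; its surface cells absorb salt and water, and its goblet cells secrete a thick mucus. GATA4 is a transcription factor of the proximal small intestine, and Hox genes of high paralog number mark posterior segments, while CDX2 is used along the whole intestine.

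In TAM long against TAM short, 6835 of 16179 genes passed the test (42.2%), 3554 of them higher in TAM long (22.0%) and 3281 lower (20.3%). Each count of genes below is to be read against these shares. Genes higher in TAM long had the wider range: 1114 rose by at least 2 on the log2 scale and 158 by at least 5, while 589 and 143 fell by as much. The median change over all genes tested was 0.05. The split between higher and lower depends on the scaling. With library size in place of TMM, the median moved to 0.27 and 69.9% of the calls were higher, against 52.0% with TMM, so small changes of single genes are to be read relative to that shift. With any 1 of the 4 libraries left out, between 4258 and 5018 genes passed, fewest without TAM short replicate 2.

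The largest rises and falls were between a level near 0 in one group and a high level in the other. Car1, the carbonic anhydrase of colonic surface cells, had 129033 and 28933 counts in TAM long and 1 and 0 in TAM short, or 11107 and 2838 normalized CPM in TAM long and 0.113 and 0 in TAM short. Both TAM long libraries were high, replicate 1 more so, and TAM short had a single count in all. The ratio of the group counts, scaled by the library totals, was 121712, with a 95% interval from 21845 to 4807388 that covers counting error only. Aqp8, a water channel of the colonic surface, had 381 and 926 normalized CPM in TAM long and 0 and 0 in TAM short, at least 1826-fold higher when each TAM short library is set to a floor of 3 counts. Cyp2c55, a cytochrome P450 of the intestine, had 3336 and 1871 normalized CPM in TAM long and 0.338 and 0.504 in TAM short (log2 fold change 12.56, SE 1.03, adjusted p = 2.08e-05). None of these 3 genes overlapped between the groups, which with 2 libraries a group holds for 77.1% of all genes tested and is to be read against that share wherever it is given. On the other side, Defa24, a Paneth cell defensin, had 0.0861 and 0 normalized CPM in TAM long and 3705 and 2713 in TAM short, and the same scaled ratio of counts was 70611 (interval 12673 to 2789022). Apoa4, a lipoprotein of chylomicrons, had 0 and 0 normalized CPM in TAM long and 269.9 and 201 in TAM short and was at least 852-fold lower in TAM long. Apoa1, the main protein of high-density lipoprotein, had 0.689 and 0.0981 normalized CPM in TAM long and 4597 and 3827 in TAM short (log2 fold change -13.27, SE 0.54, adjusted p = 6.51e-07), and Fabp6, the bile acid binding protein of ileal enterocytes, had 2.75 and 0.883 normalized CPM in TAM long and 7830.5 and 8946 in TAM short (log2 fold change -12.13, SE 0.73, adjusted p = 3.74e-06). Each was near 0 in both TAM long libraries and high in both TAM short libraries.

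Among the 15 largest rises by fitted fold change, of called genes with a mean of at least 20 normalized CPM in the higher group, were 3 Hox genes (Hoxa9, Hoxa10 and Hoxa13), the forkhead factor Foxd2, 2 cytochrome P450 genes (Cyp2c55 and Cyp2d34), the lactoperoxidase Lpo, the hydroxyacid oxidase Hao2 and the transglutaminase Tgm3. Lpo had 234 and 255 normalized CPM in TAM long and 0.225 and 0.126 in TAM short, and Hao2 had 301 and 345 in TAM long and 0.564 and 1.39 in TAM short (log2 fold change 8.38, adjusted p = 1.28e-06). These genes were at or close to 0 in TAM short, with Lpo at a scaled count ratio of 1365 (interval 467 to 6621). Some rises rested on unequal TAM long libraries: Ly6g, a surface antigen of the Ly6 family, had 14.2 and 38.5 (call lost without short 1 or short 2), Tgm3 had 10.3 and 45.8 (call lost without short 1, short 2 or long 2) and Anxa8, an annexin, had 14.6 and 47.2. All 6 of these values were above those of TAM short, which were at most 0.225. Of the 15 largest falls, 8 were defensins, and the others included Pdzk1, a scaffold of brush border transporters, with 0 and 0 normalized CPM in TAM long and 83.4 and 62.5 in TAM short (at least 264-fold lower), Enpp7, the alkaline sphingomyelinase of the small intestine, with 0 and 0 in TAM long and 84.8 and 25.1 in TAM short (at least 199-fold), and Slc5a12, a lactate transporter, with 0 and 0 in TAM long and 50.4 and 29.7 in TAM short (at least 145-fold). Defensin genes are near-identical copies of each other, so how reads were shared among Defa3, Defa5, Defa17, Defa24, Defa29, Defa30, Defa35 and Defa37 is uncertain, though all were at or near 0 in both TAM long libraries. Defa37 shows the problem (call lost without long 1 or long 2) with 2.03 and 89.5 in the 2 TAM short libraries.

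Promoters of these genes are shown for motifs of factors that the intestine uses. A window of 250 bases before to 50 bases after the start in RefSeq (GRCm38.p6) was available for 12 of the 15 largest rises and 9 of the 15 largest falls. Both strands were searched for AGATAA, a motif of the GATA factors, TTTATG, one of the CDX factors, and CAAAGTCCA, one of HNF4, none of which overlaps another of them. The 6 promoters with a match are printed 5′ to 3′ on the strand of the gene, with the matched letters in capitals. Cyp2c55 (chr19:39006769-39007068, plus strand) and Enpp7 (chr11:118987931-118988230, plus) hold AGATAA, Hao2 (chr3:98893181-98893480, minus), Nxpe2 (chr9:48340849-48341148, minus) and Fabp6 (chr11:43601513-43601812, minus) hold TTTATG or its complement CATAAA, and Pdzk1 (chr3:96829815-96830114, plus) holds CAAAGTCCA.
Cyp2c55: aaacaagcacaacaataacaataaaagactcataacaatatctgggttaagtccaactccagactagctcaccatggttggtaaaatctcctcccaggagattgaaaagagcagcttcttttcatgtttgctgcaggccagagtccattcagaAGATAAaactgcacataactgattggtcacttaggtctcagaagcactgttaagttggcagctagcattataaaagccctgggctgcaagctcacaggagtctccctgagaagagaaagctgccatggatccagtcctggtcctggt
Hao2: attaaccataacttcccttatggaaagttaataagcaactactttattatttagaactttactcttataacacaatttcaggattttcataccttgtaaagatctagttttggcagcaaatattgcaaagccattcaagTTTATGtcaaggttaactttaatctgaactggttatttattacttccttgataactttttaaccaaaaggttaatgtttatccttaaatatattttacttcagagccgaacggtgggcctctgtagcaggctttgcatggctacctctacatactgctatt
Nxpe2: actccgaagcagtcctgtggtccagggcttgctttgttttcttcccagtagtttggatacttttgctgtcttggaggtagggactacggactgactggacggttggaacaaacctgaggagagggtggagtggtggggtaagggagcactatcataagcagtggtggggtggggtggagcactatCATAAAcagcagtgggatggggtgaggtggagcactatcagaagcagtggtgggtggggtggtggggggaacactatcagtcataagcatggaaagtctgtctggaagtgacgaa
Fabp6: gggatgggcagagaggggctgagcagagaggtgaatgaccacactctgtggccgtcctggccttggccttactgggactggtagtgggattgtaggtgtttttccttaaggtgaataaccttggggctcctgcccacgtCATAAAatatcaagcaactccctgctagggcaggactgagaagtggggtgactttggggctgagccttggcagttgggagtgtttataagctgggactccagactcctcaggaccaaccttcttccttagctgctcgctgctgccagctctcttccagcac
Enpp7: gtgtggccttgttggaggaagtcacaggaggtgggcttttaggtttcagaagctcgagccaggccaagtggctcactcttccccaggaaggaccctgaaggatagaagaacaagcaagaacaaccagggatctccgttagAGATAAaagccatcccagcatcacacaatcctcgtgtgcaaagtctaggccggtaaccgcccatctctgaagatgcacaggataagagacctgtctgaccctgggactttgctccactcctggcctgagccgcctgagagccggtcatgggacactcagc
Pdzk1: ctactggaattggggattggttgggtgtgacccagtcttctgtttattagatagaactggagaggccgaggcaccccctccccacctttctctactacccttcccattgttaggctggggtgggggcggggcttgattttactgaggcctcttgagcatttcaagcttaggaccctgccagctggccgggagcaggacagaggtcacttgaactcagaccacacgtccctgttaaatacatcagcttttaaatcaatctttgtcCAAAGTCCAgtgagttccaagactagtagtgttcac

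The first 3 of these genes were higher in TAM long and the last 3 lower. Matches began at -97 from the start in Cyp2c55, at -110 in Enpp7, at -111 in Hao2, at -65 in Nxpe2, at -111 in Fabp6 and at 15 in Pdzk1. A match is a description of the letters, not a bound site. Over the 11930 tested genes with a promoter, 6.87% held AGATAA, 6.92% TTTATG and 0.486% CAAAGTCCA. Among the 2539 promoters of genes called lower the shares were 7.17%, 7.05% and 0.827%, and among the 2647 of genes called higher they were 6.16%, 6.99% and 0.302%, with AGATAA and TTTATG close to the shares over all. Of the genes that fell by at least 2 on the log2 scale, 421 had a promoter here and the shares were 14.3%, 11.2% and 2.38%, and of those that rose by as much, 794 had one and the shares were 8.06%, 8.44% and 0.756%. The choice of that size was made after the values were known. The shares among the 9 promoters of the largest falls, 1 of 9 for each motif, and among the 12 of the largest rises, 1, 2 and 0 of 12, are too few to compare.

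Genes for digestion and uptake of nutrients in the small intestine were lower in TAM long. Of 16 tested hydrolases of the brush border, 14 fell and none rose (median log2 fold change -5.22, against 0.05 over all genes). Anpep, an aminopeptidase, had 6.71 and 5.00 normalized CPM in TAM long and 5796 and 6417 in TAM short (log2 fold change -10.02, SE 0.36, adjusted p = 2.45e-07), Enpep, the glutamyl aminopeptidase, had 62.3 and 35.0 in TAM long and 2059 and 1919 in TAM short (log2 fold change -5.35, adjusted p = 9.96e-05), and Naaladl1, an aminopeptidase of the ileal brush border, had 57.5 and 2.06 in TAM long and 2418 and 2908 in TAM short (log2 fold change -6.47, adjusted p = 0.00478). Groups did not overlap for any of the 3, although the TAM long libraries differed for Naaladl1. Sis, the sucrase-isomaltase, chosen after its values were seen, had 3.44 and 0.392 normalized CPM in TAM long and 1342 and 1210.1 in TAM short (log2 fold change -9.32, adjusted p = 9.44e-05). Mep1a, a meprin subunit, was among the 2 hydrolases that did not pass, with 549.6 and 583 normalized CPM in TAM long and 944 and 1079.7 in TAM short (log2 fold change -0.84, adjusted p = 0.0842), but it was called with DESeq2, without the filter, with the replicate block and with the 4 TAM libraries alone. These are bulk libraries, so fewer cells of a type and less RNA per cell cannot be told apart.

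Of 11 tested genes of sugar transport and fructose metabolism, 9 fell and none rose (median -3.30). Slc5a1, the sodium-glucose cotransporter SGLT1, had 142 and 116 normalized CPM in TAM long and 1298 and 1251 in TAM short (log2 fold change -3.30, SE 0.20, adjusted p = 3.78e-06). Khk, the fructokinase, had 23.1 and 18.0 in TAM long and 159 and 138 in TAM short (log2 fold change -2.85, adjusted p = 7.47e-06). In both genes the TAM long libraries were close to each other and far below TAM short. Of 12 transporters of peptides and amino acids, 10 fell and 1 rose (median -3.58). Slc6a19, the main neutral amino acid transporter of the brush border, had 1.21 and 1.08 normalized CPM in TAM long and 752 and 700.4 in TAM short (log2 fold change -9.29, SE 0.26, adjusted p = 2.45e-07). Slc7a9, the light subunit of the cystine transporter, had 11.2 and 1.96 in TAM long and 394 and 399 in TAM short (log2 fold change -5.89, adjusted p = 0.000156), and Slc7a7, a basolateral transporter, had 16.4 and 19.8 in TAM long and 240.0 and 254 in TAM short (log2 fold change -3.77, adjusted p = 1.01e-06). The exception was Slc6a14, a transporter of broad range that is known from the colon, which rose, with 1091 and 814 normalized CPM in TAM long and 15.8 and 31.5 in TAM short (log2 fold change 5.34, SE 0.32, adjusted p = 3.46e-06).

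Among 21 genes of fat absorption and lipoproteins, 17 fell and 2 rose (median -3.60). Apob, the structural protein of chylomicrons, had 142 and 87.6 normalized CPM in TAM long and 4027 and 3403 in TAM short (log2 fold change -5.02, SE 0.42, adjusted p = 2.16e-05). Fabp2, the intestinal fatty acid binding protein, had 726 and 839 in TAM long and 5190.5 and 3237 in TAM short (log2 fold change -2.43, adjusted p = 0.000883), and Dgat1, which makes triglyceride, had 59.1 and 49.9 in TAM long and 622 and 520.4 in TAM short (log2 fold change -3.39, adjusted p = 1.33e-06). Fabp2 stayed well above 0 in TAM long, while Apoa1 and Apoa4 were near 0 there. The 2 rises were Scarb1, a receptor for high-density lipoprotein, with 20.3 and 20.01 normalized CPM in TAM long and 3.83 and 2.14 in TAM short (log2 fold change 2.74, adjusted p = 8.56e-05), and Plin2, a lipid droplet coat, with 113 and 99.4 in TAM long and 63.1 and 71.5 in TAM short (log2 fold change 0.66, adjusted p = 0.00819, call lost without short 1 or long 1). Fabp1, the other major fatty acid binding protein of proximal enterocytes, was low in all 4 libraries, with 2.75 and 0.0981 in TAM long and 5.19 and 2.14 in TAM short (log2 fold change -1.31, adjusted p = 0.26). Of 14 genes of iron and vitamin uptake, 7 fell and 2 rose (median -0.54), but without either TAM short library there were 4 falls and no rise. Rbp2, the retinol binding protein of enterocytes, had 11.7 and 14.0 normalized CPM in TAM long and 453 and 283 in TAM short (log2 fold change -4.84, adjusted p = 2e-05). The rises were Fth1, ferritin heavy chain, with 2275 and 1131 in TAM long and 945 and 993 in TAM short (log2 fold change 0.81, adjusted p = 0.0498, call lost without short 1, short 2 or long 1), and Trpv6, a calcium channel, with 1.03 and 6.57 in TAM long and 0 and 0.126 in TAM short (log2 fold change 5.65, adjusted p = 0.0167, call lost without short 1, short 2 or long 2). Slc40a1, the iron exporter ferroportin, had 336 and 154 in TAM long and 218 and 304 in TAM short, and Ftl1, ferritin light chain, had 805 and 539 in TAM long and 472 and 533 in TAM short. The groups overlapped for Slc40a1 but not for Ftl1, and neither gene passed the test, although Ftl1 was called with library size scaling, without the filter and without TAM long replicate 2, and Slc40a1 without TAM long replicate 1.

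Genes by which the ileum recovers bile acids were lower in TAM long. Of 7 tested, 6 fell and none rose (median -4.01), and 4 with DESeq2, with library size scaling, without either TAM short library or without TAM long replicate 2. All 7 fell without the filter, with the replicate block and without TAM long replicate 1. Fabp6, given above, is the carrier within the cell. Slc51a and Slc51b, the subunits of the basolateral exporter, had 126 and 11.4 normalized CPM in TAM long and 874 and 989 in TAM short (log2 fold change -3.76, adjusted p = 0.0399, call lost without short 1, short 2 or long 2 and with DESeq2 and with library size scaling) and 8.35 and 2.45 in TAM long and 94.0 and 112 in TAM short (log2 fold change -4.23, adjusted p = 0.000165). Fgf15, the hormone that tells the liver of returning bile acids, had 0 and 0 normalized CPM in TAM long and 21.2 and 52.3 in TAM short, at least 133-fold lower (call lost with DESeq2). Nr1h4, the bile acid receptor FXR, kept 129 and 69.9 against 176 and 200.2 (log2 fold change -0.92, adjusted p = 0.031, call lost without short 1, short 2 or long 2 and with library size scaling), and its target Nr0b2 had 0.172 and 0.0981 in TAM long and 2.03 and 2.90 in TAM short (log2 fold change -4.02, adjusted p = 0.00341). All 6 were higher in both TAM short libraries than in either TAM long library. Slc10a2, the apical uptake transporter, had 79.0 and 1.86 normalized CPM in TAM long and 232 and 333 in TAM short and did not pass the test (log2 fold change -2.79, SE 1.20, adjusted p = 0.0922), but it was the gene gained in the 3 settings with 7 falls. Its 2 TAM long values lay far apart, and the same library, TAM long replicate 1, was also the higher for Slc51a and Naaladl1. Fabp6 and Slc10a2 were low in control (2.82 and 0.240 and 5.87 and 3.37), whereas Fabp1 was high there (1589 and 2748), so the values of the 2 S-named groups also lay apart in these regional genes.

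**Figure D1:**
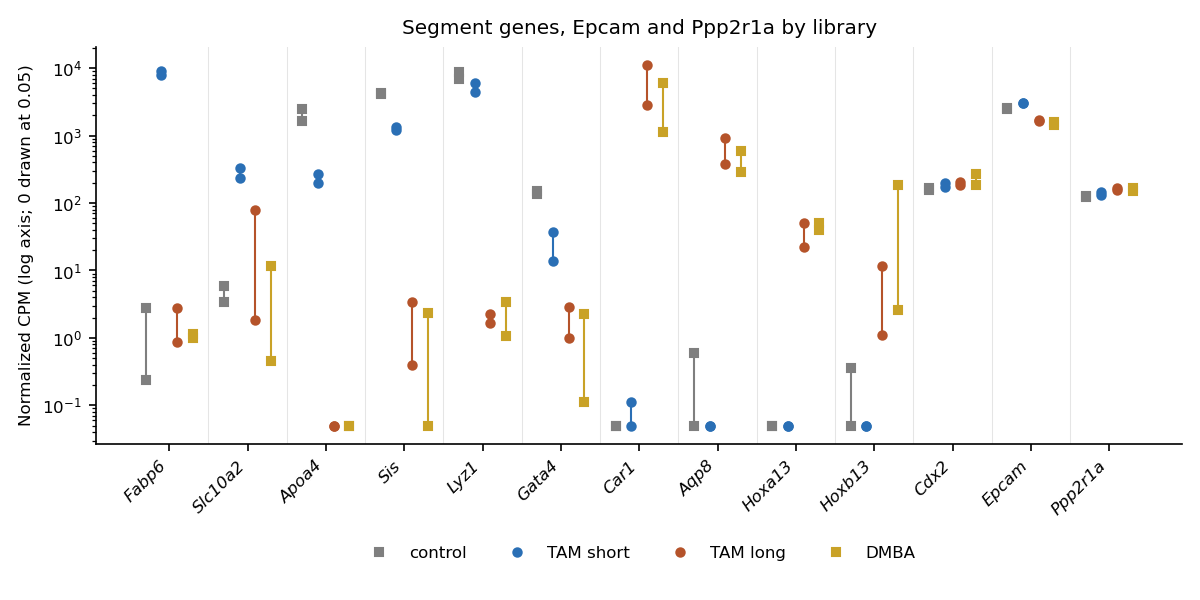
Normalized CPM (log axis, 0 drawn at 0.05) of 13 genes in control (grey squares), TAM short (blue circles), TAM long (red circles) and DMBA (yellow squares), 1 point per library and a line joining the 2 libraries of a group. Fabp6, Apoa4, Sis, Lyz1 and Gata4 lie high in TAM short and low in TAM long, Car1, Aqp8 and Hoxa13 the reverse, and Cdx2 and Ppp2r1a lie level in all groups.

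Genes of salt and water transport in the colon were mostly higher in TAM long. Of 22 tested, 15 rose and 3 fell (median 1.85), and 10 rose by at least 1 on the log2 scale. Besides Car1 and Aqp8, Car2, another carbonic anhydrase, had 853 and 763 normalized CPM in TAM long and 4.96 and 4.53 in TAM short (log2 fold change 7.40, SE 0.31, adjusted p = 6.51e-07), Aqp4, a basolateral water channel, had 398 and 922 in TAM long and 23.0 and 28.8 in TAM short (log2 fold change 4.67, adjusted p = 0.000105), and Slc26a3, the chloride-bicarbonate exchanger of the colonic surface, had 528 and 1049.9 in TAM long and 192 and 182 in TAM short (log2 fold change 2.08, adjusted p = 0.00074). Neither group overlapped the other in these genes. The epithelial sodium channel subunits Scnn1a and Scnn1b had 43.8 and 100.4 in TAM long and 6.20 and 8.81 in TAM short (log2 fold change 3.27, adjusted p = 0.00117) and 8.52 and 7.06 in TAM long and 0 and 0 in TAM short (at least 21.8-fold higher). Both channel subunits were higher in both TAM long libraries. Nr3c2, the mineralocorticoid receptor, had 126 and 102 in TAM long and 52.2 and 62.1 in TAM short (log2 fold change 1.00, adjusted p = 0.00221) and Hsd11b2, the enzyme that shields it from glucocorticoids, had 118 and 164 in TAM long and 16.1 and 31.0 in TAM short (log2 fold change 2.58, adjusted p = 0.000138). These regulators of sodium uptake were higher in TAM long without overlap. Slc9a3, the apical sodium-proton exchanger, had 185 and 194 normalized CPM in TAM long and 42.5 and 32.0 in TAM short (log2 fold change 2.35, adjusted p = 1.65e-05), and Slc9a2, a related exchanger, had 501 and 494 in TAM long and 311 and 311 in TAM short (log2 fold change 0.68, adjusted p = 0.00838, call lost without short 1 or short 2). Guca2a, guanylin, had 2052 and 2689 in TAM long and 768 and 773 in TAM short (log2 fold change 1.62, adjusted p = 0.00208), while Guca2b, uroguanylin, which is made mainly in the small intestine, fell, with 70.5 and 47.9 in TAM long and 369 and 342 in TAM short (log2 fold change -2.59, adjusted p = 0.000163). The 2 ligands of the same receptor thus differed in direction. The other falls were Slc4a4, a sodium-bicarbonate cotransporter, with 89.3 and 64.8 normalized CPM in TAM long and 281 and 287 in TAM short (log2 fold change -1.88, adjusted p = 2.04e-05), and Slc5a8, a transporter of short-chain fatty acids, with 228 and 214 in TAM long and 435 and 433 in TAM short (log2 fold change -0.97, adjusted p = 0.0421, call lost without any 1 of the 4 and with library size scaling). Atp12a, the colonic proton-potassium ATPase, was at 2.07 and 10.3 in TAM long and at 0 in both TAM short libraries, and did not pass the test (adjusted p = 0.146), although DESeq2, the fit without the filter, the replicate block and the 4 TAM libraries alone each called it.

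Other genes of colonic epithelium followed, with 14 of 20 tested higher and 2 lower (median 2.25). Retnlb, a goblet cell protein, had 4729 and 7957 normalized CPM in TAM long and 1282 and 1220.0 in TAM short (log2 fold change 2.34, adjusted p = 0.000398), Lypd8, which keeps flagellated bacteria from the colonic surface, had 6077 and 6189 in TAM long and 3169 and 3546 in TAM short (log2 fold change 0.87, adjusted p = 0.00211), and Ceacam1, an adhesion molecule, had 6060.1 and 6327 in TAM long and 2615 and 2935 in TAM short (log2 fold change 1.16, adjusted p = 0.00146). These 3 were abundant in TAM short as well. Sycn and Mptx1, chosen after their values were seen, had 171 and 537 in TAM long and 2.48 and 2.52 in TAM short and 22.8 and 457 in TAM long and 11.4 and 4.53 in TAM short. For Mptx1, a pentraxin, TAM long replicate 2 was far higher than replicate 1. The falls were Cldn4, a tight junction protein, with 52.5 and 57.9 in TAM long and 111 and 125 in TAM short (log2 fold change -1.09, adjusted p = 0.00253), and Krt20, a keratin of mature surface cells, with 1423 and 1674 in TAM long and 3882 and 3551 in TAM short (log2 fold change -1.26, adjusted p = 0.0103, call lost without short 1, short 2 or long 1). Of 10 claudins, 3 rose and 4 fell (median -0.15), with 1 rise without TAM short replicate 1. Cldn8, a claudin of the distal colon, had 34.9 and 62.9 normalized CPM in TAM long and 1.47 and 2.39 in TAM short (log2 fold change 4.66, adjusted p = 0.000635), and Cldn23 had 81.3 and 79.9 in TAM long and 33.9 and 42.6 in TAM short (log2 fold change 1.08, adjusted p = 0.00596, call lost without short 1). Cldn15 and Cldn2, which form paracellular cation pores in the small intestine, had 108 and 113 in TAM long and 391 and 348 in TAM short (log2 fold change -1.74, adjusted p = 0.000871) and 136 and 96.6 in TAM long and 272 and 363 in TAM short (log2 fold change -1.45, adjusted p = 0.00396), while Cldn3 had 349 and 296 in TAM long and 329 and 387 in TAM short and did not pass (adjusted p = 0.433).

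**Figure D2:**
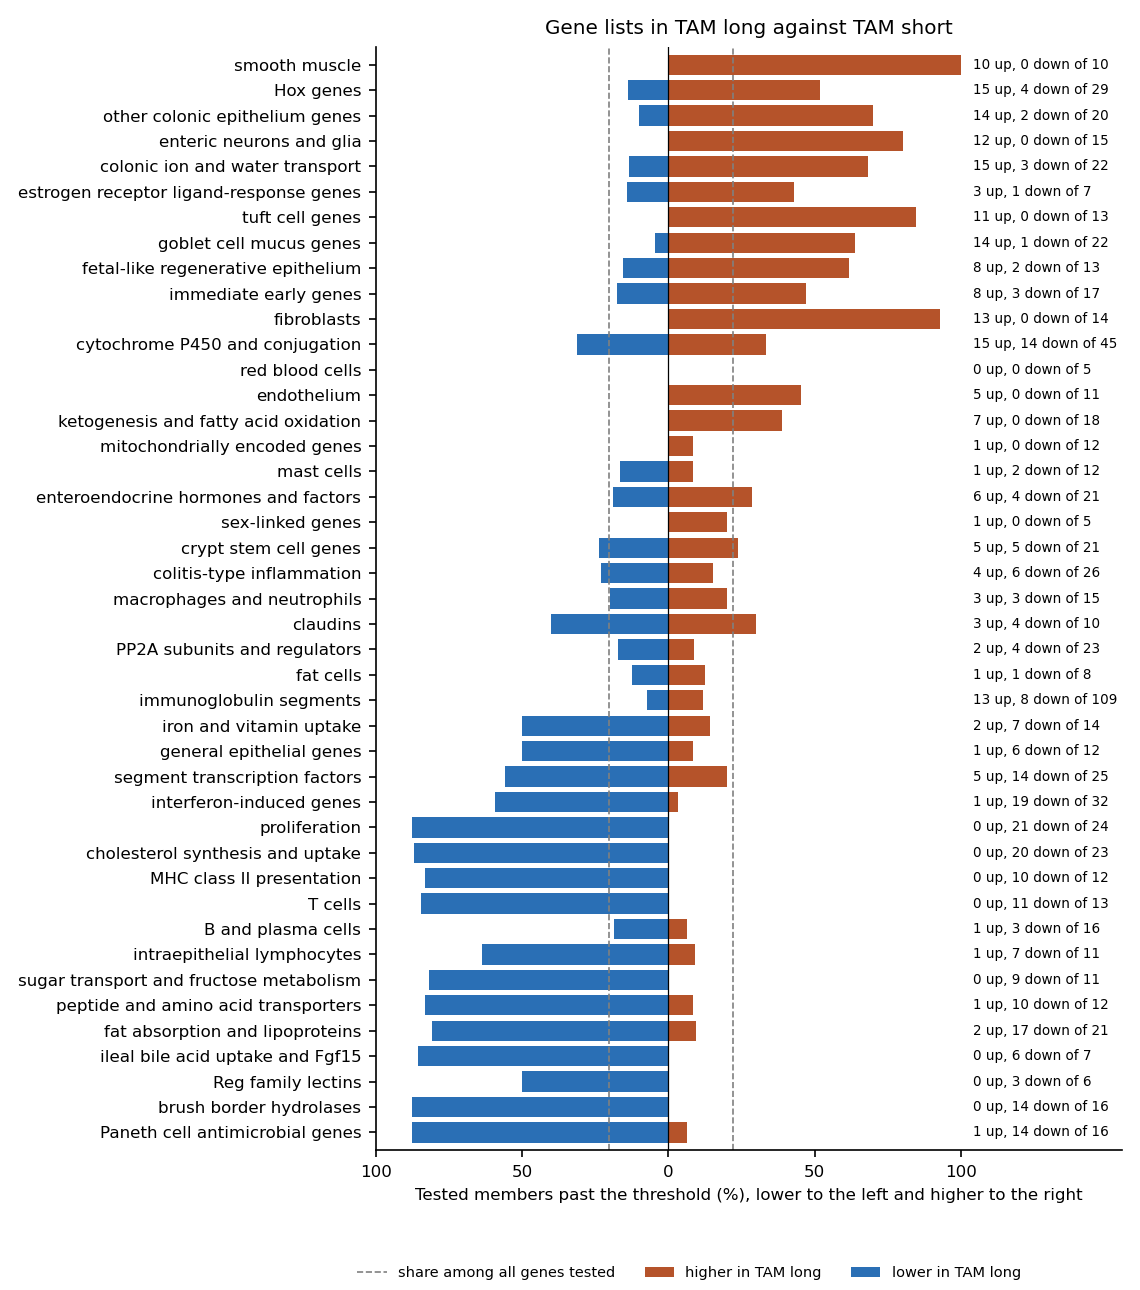
Percent of tested members of each gene list that were past the threshold in TAM long against TAM short, higher to the right (red) and lower to the left (blue), for lists with at least 5 tested members, ordered by median log2 fold change, with the counts at the right. Dashed lines mark the shares over all genes tested, 22.0% higher and 20.3% lower, and the lists of Paneth cells, brush border and ileal bile acid uptake lie at the bottom, smooth muscle and Hox genes at the top.

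Transcription factors with a regional pattern differed with these genes. Of 25 tested, 5 rose and 14 fell (median -0.77), while 8 fell without TAM long replicate 2 and 10 with library size scaling. Gata4 had 2.84 and 0.981 normalized CPM in TAM long and 36.9 and 13.6 in TAM short (log2 fold change -3.69, SE 0.69, adjusted p = 0.00289) and Gata5, another GATA factor of the gut, had 0.603 and 0.392 in TAM long and 75.5 and 82.4 in TAM short (log2 fold change -7.25, adjusted p = 5.22e-06), while Gata6, used along the whole intestine, had 37.3 and 37.2 in TAM long and 51.8 and 59.8 in TAM short (log2 fold change -0.58, adjusted p = 0.0263, call lost without any 1 of the 4 and with library size scaling). Gata4 and Gata5 were thus low in TAM long, and Gata6 changed less. Foxd2, a forkhead factor, had 40.0 and 33.2 in TAM long and 0 and 0 in TAM short (at least 102-fold higher), and Tfcp2l1, a Grainyhead-like factor, had 257 and 376 in TAM long and 29.8 and 43.7 in TAM short (log2 fold change 3.11, adjusted p = 1.42e-05). Factors of enterocyte genes fell by unequal amounts. Hnf4g had 34.0 and 25.8 normalized CPM in TAM long and 251 and 232 in TAM short (log2 fold change -3.01, adjusted p = 1.11e-05), Hnf4a had 683 and 679 in TAM long and 1333 and 1360.0 in TAM short (log2 fold change -0.98, adjusted p = 0.00166), and Creb3l3, a regulator of lipoprotein genes, had 9.21 and 6.96 in TAM long and 189 and 156 in TAM short (log2 fold change -4.41, adjusted p = 1.67e-06). Maf, a leucine zipper factor of villus cells, had 38.6 and 27.6 normalized CPM in TAM long and 377 and 400.2 in TAM short (log2 fold change -3.55, adjusted p = 1.24e-06), Tbx3 had 33.4 and 13.4 in TAM long and 153 and 174 in TAM short (log2 fold change -2.79, adjusted p = 0.00144), and Prdm1, which is also known from neonatal epithelium, had 10.9 and 9.22 in TAM long and 39.8 and 41.8 in TAM short (log2 fold change -2.01, adjusted p = 5.06e-05). The groups did not overlap for any of the called factors. Cdx2 had 203 and 185 in TAM long and 173 and 195 in TAM short (adjusted p = 0.77) and Cdx1 had 230.3 and 188 in TAM long and 161 and 185 in TAM short (adjusted p = 0.158), with overlapping values for Cdx2 and no call for either. Osr2, an odd-skipped factor, had 56.8 and 0.981 in TAM long and 78.0 and 89.2 in TAM short, low in TAM long replicate 2 alone, and did not pass (adjusted p = 0.368).

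Hox genes differed by cluster. Of 39 in the table, 29 were tested, 15 rose, 4 fell and 10 did not pass (median 2.34). Without the filter 23 rose, and without TAM long replicate 2 there were 2 falls. In the Hoxa cluster, Hoxa13 had 21.9 and 50.0 normalized CPM in TAM long and 0 and 0 in TAM short (at least 101-fold higher), Hoxa11 had 9.47 and 15.5 in TAM long and 0 and 0 in TAM short (at least 34.9-fold), and Hoxa10 had 42.6 and 70.2 in TAM long and 0 and 0 in TAM short (at least 158-fold). TAM short had no count of these 3. Hoxa9 had 37.0 and 68.8 normalized CPM in TAM long and 0.225 and 0.126 in TAM short (log2 fold change 8.09, adjusted p = 8.69e-06), Hoxa7 had 27.5 and 36.4 in TAM long and 1.69 and 0.504 in TAM short (log2 fold change 4.81, adjusted p = 3.1e-05) and Hoxa5 had 15.9 and 21.8 in TAM long and 1.69 and 0.378 in TAM short (log2 fold change 4.13, adjusted p = 5.95e-05). The smaller fold changes lay at lower paralog numbers, with Hoxa3 at 4.65 and 5.98 in TAM long and 0.451 and 1.13 in TAM short (log2 fold change 2.74, adjusted p = 0.00208) and Hoxa4 at 0.775 and 0 in TAM long and 0.451 and 0.378 in TAM short, which did not pass.

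In the Hoxb cluster the groups were closer. Hoxb9 had 66.9 and 50.4 normalized CPM in TAM long and 11.4 and 22.3 in TAM short (log2 fold change 1.81, adjusted p = 0.00194) and Hoxb5 had 15.9 and 4.61 in TAM long and 1.80 and 2.27 in TAM short (log2 fold change 2.34, adjusted p = 0.0383, call lost without short 1, short 2 or long 1). Hoxb6 had 62.3 and 9.91 in TAM long and 7.33 and 11.8 in TAM short, Hoxb7 had 24.1 and 5.30 in TAM long and 5.86 and 11.3 in TAM short and Hoxb8 had 20.9 and 3.63 in TAM long and 5.07 and 7.68 in TAM short, with overlapping groups and no call. For these 3 genes and for Hoxb4 (13.2 and 4.71), TAM long replicate 1 was the higher library, whereas for Hoxb13, the most posterior gene of the cluster, replicate 2 was (1.12 and 11.6, against 0 in both TAM short libraries, adjusted p = 0.182). The Hoxc cluster went the other way. Hoxc8 had 0.172 and 0 normalized CPM in TAM long and 15.1 and 11.5 in TAM short (log2 fold change -6.96, SE 0.80, adjusted p = 0.000146), Hoxc6 had 0.344 and 0.196 in TAM long and 3.27 and 2.64 in TAM short (log2 fold change -3.36, adjusted p = 0.00156), Hoxc5 had 0.172 and 0 in TAM long and 0.902 and 1.01 in TAM short (log2 fold change -3.18, adjusted p = 0.0111, call lost without short 2 or long 2) and Hoxc4 had 0.516 and 0.490 in TAM long and 2.82 and 1.39 in TAM short (log2 fold change -2.04, adjusted p = 0.00927, call lost without short 1, long 1 or long 2). All 4 were lower in both TAM long libraries and were the only falls among the Hox genes tested. In the Hoxd cluster, Hoxd10 and Hoxd11 had 3.79 and 1.27 in TAM long and 0 and 0 in TAM short and 1.81 and 0.490 in TAM long and 0 and 0 in TAM short (call lost without short 1, short 2 or long 1 for Hoxd11), Hoxd9 had 5.68 and 1.77 in TAM long and 0.451 and 0.378 in TAM short (log2 fold change 3.13, adjusted p = 0.0257, call lost without short 1, short 2 or long 1) and Hoxd4 had 2.41 and 0.883 in TAM long and 0.113 and 0.252 in TAM short (log2 fold change 3.11, adjusted p = 0.0252, call lost without short 1, short 2 or long 1). Hoxd8 had 16.4 and 2.84 in TAM long and 2.59 and 1.64 in TAM short and did not pass. Levels of Hox genes in tissue also come from mesenchyme, and smooth muscle and fibroblast markers, given below, were higher in TAM long. Their part in the Hox values was not tested.

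**Figure D3:**
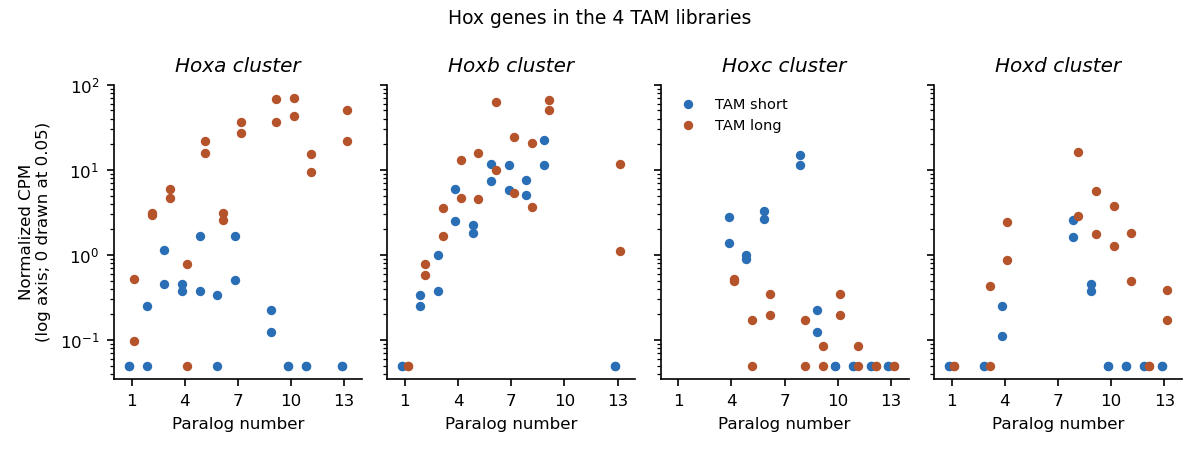
Normalized CPM (log axis, 0 drawn at 0.05) of the Hox genes of each cluster by paralog number in the 2 TAM short (blue) and 2 TAM long (red) libraries, each point a library. Hoxa genes from 9 to 13 and Hoxd genes from 10 to 11 are at or near 0 in TAM short and higher in TAM long, where the Hoxd values stay low, and Hoxc genes from 4 to 8 are lower in TAM long.

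Paneth cell genes were lower in TAM long. Of 16 tested, 14 fell and 1 rose (median -6.48). Lyz1, the Paneth cell lysozyme, had 1.64 and 2.26 normalized CPM in TAM long and 6108 and 4490.5 in TAM short (log2 fold change -11.41, SE 0.50, adjusted p = 6.98e-07), although it is a near copy of the macrophage gene Lyz2, which had 138 and 152 in TAM long and 155 and 156 in TAM short. TAM long was near 0 for Lyz1, while the 2 groups were close for Lyz2 (adjusted p = 0.761). Itln1, a lectin, had 16.4 and 39.9 normalized CPM in TAM long and 1802 and 1280.4 in TAM short (log2 fold change -5.78, adjusted p = 2.22e-05), and Pla2g2a, a secreted phospholipase that kills bacteria, had 79.5 and 64.1 in TAM long and 1593 and 1294 in TAM short (log2 fold change -4.33, adjusted p = 0.000101). The rise was Sox9, a factor of crypt base and progenitor cells in both segments, with 59.1 and 47.3 normalized CPM in TAM long and 14.2 and 13.6 in TAM short (log2 fold change 1.94, adjusted p = 1.65e-05). Of 6 Reg lectins, 3 fell and none rose (median -4.53), and all 6 fell without the filter or with the 4 TAM libraries alone. Reg3b and Reg3g, antibacterial lectins, had 1124 and 358 normalized CPM in TAM long and 25507 and 30476 in TAM short (log2 fold change -5.24, adjusted p = 0.000336) and 266 and 107 in TAM long and 13239 and 15685 in TAM short (log2 fold change -6.28, adjusted p = 0.000547), and Reg3a had 1.21 and 0 in TAM long and 101 and 84.4 in TAM short (log2 fold change -7.15, adjusted p = 0.00273). These genes resemble each other closely, so the division of reads among them is uncertain. Reg4, a lectin of enteroendocrine and goblet cells, had 18.4 and 13.8 in TAM long and 83.9 and 82.6 in TAM short and did not pass (adjusted p = 0.167), and the DMBA libraries, which enter the same fit, had 40.2 and 3764.

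Goblet cell genes were higher in TAM long, with 14 of 22 tested, and 1 was lower (median 1.12). The rises numbered 9 without either TAM short library or without TAM long replicate 2, and 4 genes were lower without the filter or with the 4 TAM libraries alone. Muc2, the gel-forming mucin, had 9569 and 12483 normalized CPM in TAM long and 2176 and 2739.7 in TAM short (log2 fold change 2.17, SE 0.22, adjusted p = 7e-05). Retnlb is given above. Other abundant goblet cell genes did not pass: Zg16 had 2485 and 3383 in TAM long and 2751 and 2766 in TAM short, with overlapping groups, and Tff3, the trefoil factor, had 1142 and 1288 in TAM long and 2127 and 2218 in TAM short. Clca3b was the fall, with 37.0 and 54.7 normalized CPM in TAM long and 83.1 and 84.9 in TAM short (log2 fold change -0.87, adjusted p = 0.043, call lost without short 1, short 2 or long 1 and with library size scaling). The summed goblet list came to 28254 and 43493 in TAM long and 16519 and 17859 in TAM short. Of 13 tested genes of tuft cells, the chemosensory cells of the epithelium, 11 rose and none fell (median 1.65). Dclk1, a kinase used as a tuft cell marker, had 26.5 and 24.4 normalized CPM in TAM long and 3.95 and 4.53 in TAM short (log2 fold change 2.59, adjusted p = 2.16e-05), Ptgs1, a cyclooxygenase, had 43.7 and 52.9 in TAM long and 18.6 and 16.2 in TAM short (log2 fold change 1.47, adjusted p = 0.00154), and Cd24a had 653 and 593 in TAM long and 260.4 and 211 in TAM short (log2 fold change 1.40, adjusted p = 0.00188). Each was higher in both TAM long libraries.

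Hormone genes of enteroendocrine cells were called at shares near those of all genes, with 6 of 21 tested higher and 4 lower (median 0.30). Those counts rest on single libraries, with 1 higher and 3 lower once TAM short replicate 2 was left out and 2 and 3 without TAM short replicate 1. Insl5, a hormone of colonic L cells, had 13.3 and 41.0 normalized CPM in TAM long and 0.338 and 0.252 in TAM short (log2 fold change 6.43, adjusted p = 0.00739, call lost without short 1 or short 2), and Gip, the incretin of duodenal K cells, had 0 and 0 in TAM long and 28.3 and 16.1 in TAM short (at least 80.4-fold lower). Insl5 was near 0 in TAM short and Gip had no count in TAM long. Sct, secretin, had 21.1 and 12.2 normalized CPM in TAM long and 38.4 and 42.9 in TAM short (log2 fold change -1.29, adjusted p = 0.0175, call lost without short 1, short 2 or long 2 and with library size scaling), and Tac1, the substance P precursor, had 13.7 and 18.1 in TAM long and 36.0 and 35.1 in TAM short (log2 fold change -1.16, adjusted p = 0.00298). Gcg, the proglucagon of L cells, had 42.2 and 51.4 in TAM long and 48.3 and 47.5 in TAM short, Sst, somatostatin, had 11.8 and 9.42 in TAM long and 11.8 and 11.7 in TAM short, and Pyy, peptide YY, had 31.8 and 35.5 in TAM long and 24.6 and 21.0 in TAM short. None of these 3 passed, and the groups overlapped for Gcg and Sst. Tph1, the serotonin-making enzyme of enterochromaffin cells, had 9.04 and 6.37 normalized CPM in TAM long and 1.01 and 1.51 in TAM short (log2 fold change 2.61, adjusted p = 0.00163), and Chgb, a granin, had 87.9 and 53.5 in TAM long and 36.6 and 35.8 in TAM short (log2 fold change 0.97, adjusted p = 0.0079, call lost without short 1, short 2 or long 1), while Chga had 39.3 and 26.7 in TAM long and 28.5 and 22.4 in TAM short and did not pass. Pax4, a factor of endocrine fate, had 0.172 and 0.196 in TAM long and 3.38 and 3.40 in TAM short (log2 fold change -4.10, adjusted p = 0.00126). Nts, neurotensin, had 53.4 and 14.1 in TAM long and 48.6 and 51.4 in TAM short, again with the higher value in TAM long replicate 1.

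Crypt stem cell genes showed no common direction: 5 of 21 rose and 5 fell (median 0.10), or 6 and 3 with library size scaling. Fewer were also called lower when either TAM short library or TAM long replicate 2 was left out. Olfm4, a stem cell marker of the small intestine that mouse colon lacks, had 0 and 0.294 normalized CPM in TAM long and 291 and 236 in TAM short (log2 fold change -10.75, SE 0.48, adjusted p = 7.46e-07), and Prom1 had 575 and 630.4 in TAM long and 111 and 122 in TAM short (log2 fold change 2.37, adjusted p = 3.4e-06). Lgr5 itself, chosen after its values were seen, had 2.41 and 3.92 in TAM long and 5.52 and 6.42 in TAM short and did not pass (log2 fold change -0.92, SE 0.37, adjusted p = 0.0735). Of 24 genes of proliferation, 21 fell and none rose (median -0.91), 10 of them by at least 1 on the log2 scale. Top2a, a topoisomerase of dividing cells, had 99.2 and 96.7 normalized CPM in TAM long and 261 and 242 in TAM short (log2 fold change -1.36, SE 0.17, adjusted p = 0.00025), Cdk1 had 23.3 and 30.2 in TAM long and 50.7 and 51.4 in TAM short (log2 fold change -0.93, adjusted p = 0.00384), Mcm7, of the replication helicase, had 43.6 and 33.5 in TAM long and 69.2 and 61.8 in TAM short (log2 fold change -0.76, adjusted p = 0.00299), and Pcna had 129 and 125 in TAM long and 191 and 176 in TAM short (log2 fold change -0.52, adjusted p = 0.0248, call lost without any 1 of the 4 and with library size scaling). Genes of a fetal-like, regenerative epithelium were higher in 8 of 13 tested and lower in 2 (median 1.05), with none lower without TAM long replicate 1 and 1 lower without any 1 of the other 3 TAM libraries. Anxa1, an annexin, had 166 and 275 normalized CPM in TAM long and 19.4 and 22.8 in TAM short (log2 fold change 3.39, adjusted p = 9.89e-06), S100a6 had 632 and 995 in TAM long and 124 and 143 in TAM short (log2 fold change 2.61, adjusted p = 4.7e-05), and Ly6a, the surface antigen Sca-1, had 407 and 435 in TAM long and 166 and 187 in TAM short (log2 fold change 1.26, adjusted p = 7.46e-05). Ccnd2 and Il33 were the falls, with 118 and 123 in TAM long and 195 and 202 in TAM short (log2 fold change -0.72, adjusted p = 0.00915, call lost without short 2 or long 1) and 5.51 and 6.18 in TAM long and 19.96 and 10.3 in TAM short (log2 fold change -1.38, adjusted p = 0.0135, call lost without short 1, long 1 or long 2). Anxa1 and S100a6 are also used by fibroblasts, whose markers were higher in TAM long, and their part in these values was not tested.

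Genes of the interferon response and of antigen presentation were mostly lower in TAM long. Of 32 interferon-induced genes, 19 fell and 1 rose (median -0.89). Irf1, an interferon-responsive factor, had 195 and 172 normalized CPM in TAM long and 535 and 473 in TAM short (log2 fold change -1.46, SE 0.12, adjusted p = 1.99e-05), and Oasl1 had 52.8 and 47.7 in TAM long and 207 and 217 in TAM short (log2 fold change -2.08, adjusted p = 8.09e-05). Oas2, the one rise, had 11.0 and 16.1 in TAM long and 6.09 and 6.42 in TAM short (log2 fold change 1.11, adjusted p = 0.0239, call lost without short 1, short 2 or long 2), and Irf7 had 252 and 223 in TAM long and 153 and 168 in TAM short and did not pass. Of 12 genes of antigen presentation on MHC class II, 10 fell and none rose (median -1.55), and 5 fell without TAM long replicate 2, where Cd74 and H2-Ab1 lost their calls. Cd74, the invariant chain, had 869 and 558 normalized CPM in TAM long and 1753 and 1837 in TAM short (log2 fold change -1.33, adjusted p = 0.0138, call lost without short 1, short 2 or long 2), H2-Ab1, a class II chain, had 92.6 and 63.7 in TAM long and 198 and 196 in TAM short (log2 fold change -1.33, adjusted p = 0.0085, call lost without long 2), and H2-DMa, which loads peptides, had 45.0 and 24.2 in TAM long and 107 and 121 in TAM short (log2 fold change -1.72, adjusted p = 0.00134). Ctss, a cathepsin, was level, with 288 and 295 in TAM long and 269 and 289 in TAM short. A list of colitis-type inflammation had 4 of 26 higher and 6 lower (median 0.03), shares near or below those of all genes, and 2 to 3 higher and 3 to 4 lower without single libraries. Its members went apart: Saa1, an acute phase protein, had 899 and 1033 normalized CPM in TAM long and 150.0 and 266 in TAM short (log2 fold change 2.21, adjusted p = 0.000902) and Il1rn, the interleukin-1 receptor antagonist, had 20.9 and 28.9 in TAM long and 5.19 and 4.41 in TAM short (log2 fold change 2.37, adjusted p = 0.000885), while Ido1, which degrades tryptophan, had 80.5 and 57.2 in TAM long and 221 and 225 in TAM short (log2 fold change -1.69, adjusted p = 0.000116) and Tgm2 had 103 and 93.8 in TAM long and 294 and 332 in TAM short (log2 fold change -1.67, adjusted p = 5.56e-05). Il6 had no count in any of the 4 libraries, which allows up to 0.258 to 0.378 CPM per library.

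Lists of metabolism differed in their direction. Of 23 genes of cholesterol synthesis and uptake, 20 fell and none rose (median -1.003), 12 of them by at least 1 on the log2 scale. The list sums were 2201 and 2792 normalized CPM in TAM long and 5246 and 5657 in TAM short. Control had 2698 and 2653 and DMBA 2273 and 3233, so TAM short was the group that stood apart. Hmgcs1, an early enzyme of the pathway, had 303 and 443 normalized CPM in TAM long and 841 and 919 in TAM short (log2 fold change -1.24, SE 0.25, adjusted p = 0.00363), Idi1 had 128 and 163 in TAM long and 427 and 420.1 in TAM short (log2 fold change -1.54, adjusted p = 0.00228) and Cyp51 had 132 and 195 in TAM long and 421 and 466 in TAM short (log2 fold change -1.44, adjusted p = 0.00148). All 3 were lower in both TAM long libraries, with replicate 1 the lower. Of 18 genes of ketogenesis and fatty acid oxidation, 7 rose and none fell (median 0.35). Other settings gave other counts, with 3 rises without either TAM short library, 5 rises and 3 falls without TAM long replicate 1, and 2 falls beside 7 rises with DESeq2. Hadhb, a subunit of the mitochondrial trifunctional protein, had 347 and 291 normalized CPM in TAM long and 228 and 245 in TAM short (log2 fold change 0.43, adjusted p = 0.0389, call lost without short 1, short 2 or long 1). Hadha, of the same protein, did not pass, with 424 and 376 in TAM long and 359.9 and 371 in TAM short. Cytochrome P450 and conjugation genes split evenly, with 15 of 45 higher and 14 lower (median 0.56), and without TAM long replicate 1 there were 10 higher and 16 lower. Cyp2d34 had 265 and 280.3 normalized CPM in TAM long and 0 and 0.126 in TAM short, a scaled count ratio of 4576 (interval 821 to 180771), and Ces2c, a carboxylesterase, had 338 and 257 in TAM long and 161 and 159 in TAM short (log2 fold change 0.89, adjusted p = 0.0208, call lost without short 1, short 2 or long 1). Among the falls, Cyp3a11 had 0.516 and 0 normalized CPM in TAM long and 32.0 and 20.3 in TAM short (log2 fold change -6.50, adjusted p = 9.34e-05), Cyp4f14 had 35.3 and 33.0 in TAM long and 815 and 672 in TAM short (log2 fold change -4.44, adjusted p = 8.34e-05) and Abcg2, a drug exporter, had 131 and 169.9 in TAM long and 444 and 495 in TAM short (log2 fold change -1.64, adjusted p = 2.97e-05). Cyp3a25, which rested on TAM long replicate 1 for its level there, had 7.57 and 0 in TAM long and 35.1 and 35.5 in TAM short (log2 fold change -3.17, adjusted p = 0.0151, call lost without short 1 or short 2 and with DESeq2). Abcc2, the exporter of conjugates, had 1.81 and 0.392 in TAM long and 46.2 and 51.9 in TAM short (log2 fold change -5.41, adjusted p = 1.59e-05).

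Subunits and regulators of protein phosphatase 2A, the enzyme the floxed gene belongs to, had fewer calls than all genes together: 2 of 23 tested rose and 4 fell (median -0.17), and the direction turned to 5 higher and 2 lower with library size scaling. The catalytic subunits had 285 and 259 normalized CPM in TAM long and 232 and 230.2 in TAM short for Ppp2ca (adjusted p = 0.108) and 83.8 and 79.8 in TAM long and 104 and 93.8 in TAM short for Ppp2cb (adjusted p = 0.226), and Ppp2r1b, the other scaffold, had 27.7 and 37.1 in TAM long and 30.2 and 32.0 in TAM short (adjusted p = 0.814). The falls were Set, an inhibitor of the phosphatase, with 211 and 197 in TAM long and 340.0 and 311 in TAM short (log2 fold change -0.67, adjusted p = 0.00232), Ptpa, its activator, with 85.1 and 79.0 in TAM long and 114 and 122 in TAM short (log2 fold change -0.52, adjusted p = 0.00363, call lost with library size scaling), the regulatory subunit Ppp2r5d with 52.1 and 49.3 in TAM long and 79.7 and 89.5 in TAM short (log2 fold change -0.74, adjusted p = 0.00217) and Strn, striatin, with 44.4 and 49.2 in TAM long and 63.1 and 68.1 in TAM short (log2 fold change -0.49, adjusted p = 0.00837, call lost without short 2 or long 1 and with library size scaling). The rises were Ppp2r5e, with 62.1 and 67.5 in TAM long and 47.7 and 52.3 in TAM short (log2 fold change 0.38, adjusted p = 0.0445, call lost without any 1 of the 4 and with DESeq2), and Ppp2r2b, which is known from neurons, with 3.44 and 1.77 in TAM long and 0.451 and 0.881 in TAM short (log2 fold change 1.97, adjusted p = 0.039, call lost without any 1 of the 4). With library size scaling, Ppp2r1a itself passed the test with a log2 fold change of 0.46. Of 7 tested genes that respond to ligands of the estrogen receptor, which tamoxifen also binds, 3 rose and 1 fell (median 1.75). Cav1, caveolin, had 149 and 205 normalized CPM in TAM long and 48.9 and 45.7 in TAM short (log2 fold change 1.90, adjusted p = 2.61e-05), Xbp1 had 194 and 206 in TAM long and 332 and 340.0 in TAM short (log2 fold change -0.75, adjusted p = 0.00102), and Ctsd did not pass, with 354 and 313 in TAM long and 303 and 319.8 in TAM short. Of 17 immediate early genes, 8 rose and 3 fell (median 0.88), with Fos at 157 and 200.0 in TAM long and 74.2 and 81.0 in TAM short (log2 fold change 1.20, adjusted p = 0.0018) and Junb at 109 and 86.5 in TAM long and 173 and 145 in TAM short (log2 fold change -0.70, adjusted p = 0.00435).

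Markers of cells outside the epithelium differed between the groups as well. The study describes organoid cultures started from collected crypts, and where these markers came from was not tested. All 10 genes of smooth muscle rose (median 2.38). Actg2, enteric actin, had 1017 and 1598 normalized CPM in TAM long and 329.8 and 158 in TAM short (log2 fold change 2.42, adjusted p = 0.000971), Tagln had 1332 and 2138 in TAM long and 286 and 181 in TAM short (log2 fold change 2.89, adjusted p = 8.01e-05), and Acta2 had 1247 and 1724 in TAM long and 265 and 165 in TAM short (log2 fold change 2.79, adjusted p = 8.56e-05). Summed over the list, TAM long held 10340.3 and 15457 CPM and TAM short 3304 and 1836, so muscle genes were abundant in both groups and no member was at 0. Of 14 fibroblast genes, 13 rose and none fell (median 0.86; sums of 1812 and 2261 and 1009.8 and 834), with 7 rises without TAM short replicate 2, 8 without TAM long replicate 2 and 5 of at least 1 on the log2 scale. Postn, periostin, had 291 and 355 normalized CPM in TAM long and 45.1 and 23.7 in TAM short (log2 fold change 3.23, adjusted p = 3.85e-05) and Col3a1, a fibrillar collagen, had 519 and 705 in TAM long and 249 and 205 in TAM short (log2 fold change 1.43, adjusted p = 0.000311). Of 15 genes of enteric neurons and glia, 12 rose and none fell (median 2.20; sums of 137 and 134 and 68.7 and 43.9). Vip, a neuropeptide, had 32.2 and 43.8 normalized CPM in TAM long and 44.3 and 27.1 in TAM short and did not pass. Endothelial genes rose in 5 of 11 (median 0.50), with Pecam1 at 31.9 and 39.9 in TAM long and 23.5 and 24.1 in TAM short (log2 fold change 0.60, adjusted p = 0.0169, call lost without short 1, short 2 or long 2).

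Genes of T cells and intraepithelial lymphocytes were lower in TAM long. Of 13 T cell genes, 11 fell and none rose (median -1.996; sums of 33.7 and 25.5 in TAM long and 138 and 143 in TAM short). Cd8a had 4.56 and 3.33 normalized CPM in TAM long and 28.8 and 30.3 in TAM short (log2 fold change -2.89, adjusted p = 2.97e-05), and Cd3g had 5.34 and 3.53 in TAM long and 18.2 and 17.1 in TAM short (log2 fold change -1.98, adjusted p = 0.000484). Of 11 genes of intraepithelial lymphocytes, the T cells that sit among enterocytes, 7 fell and 1 rose (median -2.25), the rise being lost with DESeq2 and when either TAM short library or TAM long replicate 1 was left out. Gzma and Gzmb, granzymes of these cells, had 7.66 and 1.67 normalized CPM in TAM long and 171 and 177 in TAM short (log2 fold change -5.19, adjusted p = 2.62e-05) and 12.5 and 4.22 in TAM long and 149 and 148 in TAM short (log2 fold change -4.13, adjusted p = 5.05e-05), and Klrd1 was the rise, with 3.53 and 2.06 in TAM long and 1.35 and 0.881 in TAM short (log2 fold change 1.31, adjusted p = 0.0377, call lost without short 1, short 2 or long 1 and with DESeq2). B and plasma cell genes had 1 of 16 higher and 3 lower (median -2.01), a count that moved with the setting, from 0 lower without either TAM long library or TAM short replicate 2 to 10 lower without the filter or with the 4 TAM libraries alone, and 8 with a replicate block. Igha, the antibody chain of plasma cells, had 2326 and 2692 in TAM long and 2127 and 2656 in TAM short, with overlapping groups and no call. Macrophage and neutrophil genes had 3 of 15 higher and 3 lower (median -0.06), or 1 and 1 without TAM short replicate 1 and 3 and 1 without TAM long replicate 1, with C1qa at 65.8 and 58.0 in TAM long and 75.3 and 70.0 in TAM short and no count of the neutrophil granule genes Mpo and Elane in any of the 4 libraries, although Ly6g, used as a neutrophil marker, was among the largest rises. Mast cell genes had 1 of 12 higher and 2 lower, fat cell genes 1 and 1 of 8, and red blood cell genes none of 5. The mast cell and fat cell counts changed when any 1 of the 4 libraries was left out. Of 109 tested immunoglobulin segments, 13 rose and 8 fell, or 4 and 4 without TAM short replicate 1 and 20 and 17 without the filter. Exocrine pancreas genes were close to 0 apart from Cela1, with 57.8 and 81.1 in TAM long and 8.68 and 8.06 in TAM short (log2 fold change 3.05, adjusted p = 0.0193, call lost without short 1, short 2 or long 2), and Prss1, Amy2a5 and Try4 had no count.

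**Figure D4:**
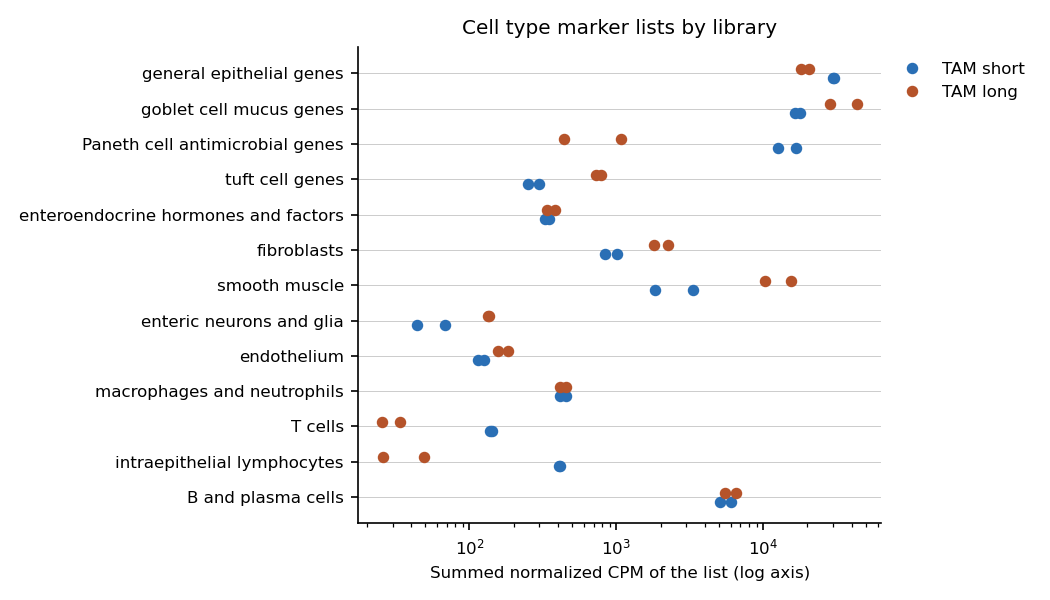
Summed normalized CPM (log axis) of 13 lists of cell type markers in the 2 TAM short (blue) and 2 TAM long (red) libraries, each point a library. Smooth muscle, fibroblast, neuron and glia and tuft cell sums are higher in both TAM long libraries, Paneth cell, T cell and intraepithelial lymphocyte sums lower, and those of plasma cells and macrophages overlap.

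These lists moved with the segment genes in the same 4 libraries, so the shares of muscle, stroma, T cells and epithelium cannot be told apart from a change within epithelial cells for a gene that more than 1 of them uses, and their part in the results above was not tested. General epithelial genes gave 1 rise and 6 falls of 12 (median -0.60). Vil1, villin of the brush border, had 747 and 810.2 normalized CPM in TAM long and 3027 and 3121 in TAM short (log2 fold change -1.98, adjusted p = 1e-05), Krt18 was the rise, with 369 and 591 in TAM long and 269 and 279 in TAM short (log2 fold change 0.81, adjusted p = 0.0213, call lost without short 1, short 2 or long 2), and Lgals4, a lectin, had 3277 and 3575 in TAM long and 4149.9 and 4084 in TAM short and did not pass. Genes of mitochondria had 1 of 12 higher and none lower, but 7 higher with library size scaling, 4 with DESeq2 or the 4 TAM libraries alone and none when either TAM short library or TAM long replicate 1 was left out, with mt-Co1 at 21557 and 18689 in TAM long and 13057 and 13243 in TAM short (log2 fold change 0.61, adjusted p = 0.0108, call lost without short 1, short 2 or long 1). Of the genes on the sex chromosomes, all 4 Y-linked ones were present in all 4 libraries, and Ddx3y had 71.8 and 81.0 in TAM long and 54.7 and 52.6 in TAM short (log2 fold change 0.51, adjusted p = 0.0068, call lost without short 2 or long 2).

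The same contrast of an L-named with an S-named group exists for DMBA and control, and shares no library with the TAM contrast. The difference between the 2 contrasts was tested in the same fit, as TAM long minus TAM short less DMBA minus control. It passed for 924 of 16179 genes (5.71%), 474 with a positive value (2.93%) and 450 with a negative one (2.78%). Of the 6835 genes called between TAM long and TAM short, 596 (8.72%) also passed this test, and 328 of the 924 were not called between the TAM groups. For the other genes a difference between the contrasts was not detectable with 2 libraries a group, which does not show that the contrasts are alike.

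Without single libraries the count ranged from 179 (TAM short replicate 2 left out) to 1618 (DMBA replicate 1 left out), so it rests on which libraries are in the fit. Among the regional genes, Lyz1 had 1.07 and 3.36 in DMBA and 8819.8 and 7007 in control and did not pass (difference 0.43, adjusted p = 0.718). Car1 had 6073 and 1143 in DMBA and 0 and 0 in control, and with no count in control its difference has no usable size. For Lyz1 and Car1 the DMBA values were like TAM long and the control values like TAM short in being high or low. The summed Paneth cell list did not follow this in both DMBA libraries. It came to 2634 and 13446 normalized CPM in DMBA, 439 and 1070.0 in TAM long and 16789 and 12516 in TAM short. DMBA replicate 2 thus lay within the TAM short values for that sum. Its Lyz1 value was only 3.36, so other members of the list made up the sum there. Of the genes that passed, Fabp6 had the largest negative difference (-11.62, SE 1.21, adjusted p = 0.00146), which had 2.82 and 0.240 in control and 1.16 and 1.01 in DMBA, so that only TAM short was high. Slc25a48, a mitochondrial carrier, had a similar pattern, with 2.50 and 2.16 normalized CPM in TAM long and 125 and 185 in TAM short, 2.93 and 1.20 in control and 3.21 and 3.59 in DMBA (-6.73, adjusted p = 0.000712). Hoxb9 had 0.113 and 0.120 in control and 58.5 and 33.4 in DMBA (-6.64, adjusted p = 0.00288), Pla2g4c, a phospholipase, had 6.09 and 4.93 and 224 and 593 (-8.07, adjusted p = 0.000712), and B3gnt7, a glycosyltransferase, had 15.2 and 18.9 and 28.3 and 267 (-6.43, adjusted p = 0.0112). TAM short held 11.4 and 22.3 for Hoxb9, 26.4 and 36.0 for Pla2g4c and 341 and 349 for B3gnt7, in each case above both control libraries. Between TAM long and TAM short, Pla2g4c lost its call without short 2, long 1 or long 2, and B3gnt7 without long 1.

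Among genes that passed the test and met the level rule (20 normalized CPM on average in some group, antigen receptor segments left out), the largest positive fitted differences were in genes that control held at high levels and TAM short did not. Fabp1 had 1589 and 2748 in control, 0.535 and 0 in DMBA, 5.19 and 2.14 in TAM short and 2.75 and 0.0981 in TAM long (11.46, SE 1.49, adjusted p = 0.00488). Slc5a4a, of the glucose cotransporter family, had 185 and 190.0 in control and 1.24 and 1.76 in TAM short (adjusted p = 0.00811), and Adh4, an alcohol dehydrogenase, had 34.4 and 56.0 and 3.95 and 4.16 (adjusted p = 0.0407). Both had no count in either DMBA library, so their fitted differences depend on how 0 is handled and are not given as sizes. Slc23a1, a vitamin C transporter, had 141 and 144 in control and 1.80 and 0.630 in TAM short (6.82, adjusted p = 0.00141). Aadac, an arylacetamide deacetylase, had 131 and 163 in control and 3.50 and 1.39 in TAM short, below the 24.3 and 32.0 of TAM long (6.37, adjusted p = 0.000381). In these 5 genes control was the highest of the 4 groups. By list, cholesterol synthesis and uptake had 15 of 23 genes with a negative difference and none positive, and cytochrome P450 and conjugation had 18 of 45 positive and none negative. Cyp51, for example, had 178 and 192 in control and 147 and 255 in DMBA (-1.56, adjusted p = 0.0322), and Cyp3a13 had 783 and 883 and 88.6 and 63.4 (2.26, adjusted p = 0.00378). Lists of absorption had 9 of 21 positive for fat, 6 of 11 for sugar and 4 of 16 for brush border hydrolases, with none negative. Goblet cell genes had 1 positive and 6 negative of 22, and interferon-induced genes 5 positive and 7 negative of 32. For the Hox genes 1 of 29 passed, Hoxb9, and for the Paneth cell list none of 16. Genes at 0 in 2 of the 4 groups, among them several Hox and defensin genes, gave errors too large to use for this difference.

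**Figure D5:**
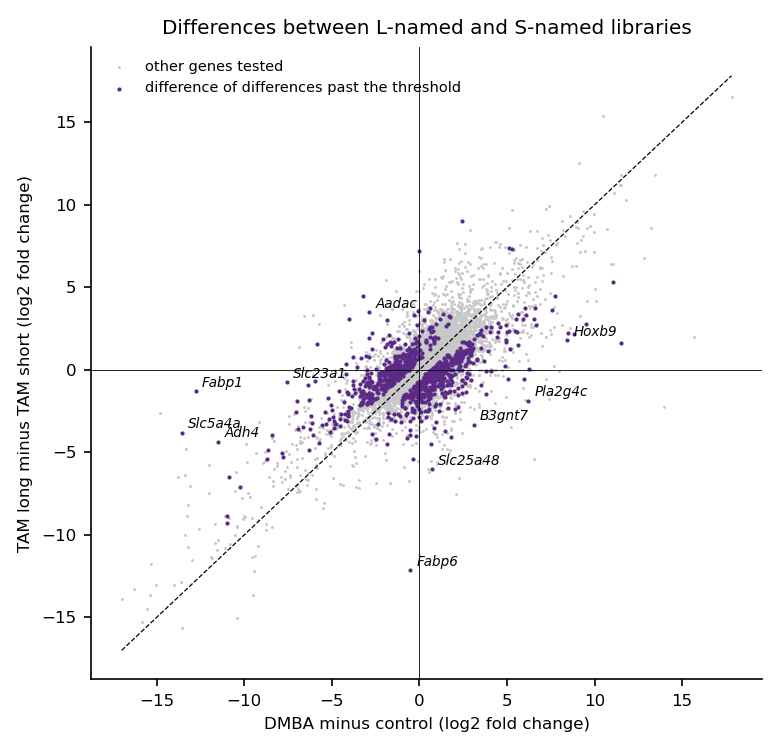
Log2 fold change of TAM long minus TAM short (vertical) against that of DMBA minus control (horizontal) for 16179 genes, each point a gene, with the 924 genes whose difference of differences passed the test in purple and the dashed line at equality. The 5 largest fitted differences each way that met the level rule are named (Slc5a4a and Adh4 had no count in DMBA, so their places are fitted values only), with Fabp6 at -12.13 and -0.51 and Fabp1 at -1.31 and -12.77.

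The labels make the TAM groups differ in short against long, and the genes above make them differ in markers of the intestinal segment. Fabp6, Lyz1 and Apoa4 were high in both TAM short libraries and low in both TAM long libraries, and Car1 and Aqp8 the reverse, although Slc10a2, Slc51a, Naaladl1 and several Hoxb genes lay far apart within TAM long. The label and these markers therefore cannot be told apart. An exact permutation test of single values over 2 against 2 libraries cannot go below p = 0.333, so single genes rest on the spread that edgeR shares across genes.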

How the data were processed

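RNA of the 10 samples, described as organoids, was poly(A)-selected and made into libraries with a NEBNext Ultra kit. The authors aligned reads with TopHat and counted them per gene with HTSeq, which gave the deposited raw counts, and the authors computed FPKM from those counts and gene lengths. Their strand setting is not given in the sources used here. The genome build in the submitters' processing notes is GRCm38.p6. Fold change and p-value columns of the authors' own comparisons were not used. Of 47074 lines in the table, 5 were pieces of broken lines without counts and were dropped, and 46488 of 47069 gene IDs (98.77%) were matched to gene symbols in a reference table. Promoters came from RefSeq. Groups came from the labels. The 44 gene lists and their member genes were chosen with earlier results of these data known.

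edgeR 4.0.16 (R 4.3.3) tested the counts as deposited, with filterByExpr, TMM scaling and the quasi-likelihood test on the means of 5 groups over all 10 libraries. The 2 DMBA+TAM libraries, with 1592366 and 1915270 counts against 8828247 to 10923673 in the others, are in no comparison, and entered the filter (16179 genes tested with them and 15396 without), the scaling and the estimate of spread. Standard errors are the log2 fold change divided by the square root of F. Normalized CPM are counts scaled to the TMM-adjusted library totals, and a group at 0 was set to a floor of 3 counts per library for a lower bound. Intervals of ratios are exact and cover counting error only, since reads without molecular identifiers are not independent molecules. FPKM served to compare replicates, as log2(FPKM + 1), and to choose which list members are named, as given below.

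Genes were named by rule: Ppp2r1a, the 15 largest changes each way among genes past the threshold with a mean of at least 20 normalized CPM in the higher group (no Gm or Rik models or antigen receptor segments), of each list up to 4 tested members with the highest mean FPKM and any called member that went against most others, and the 5 largest differences between the TAM and DMBA contrasts each way by the same level. Any member could be named of the lists of segment transcription factors, Hox genes, phosphatase subunits, ileal bile acid genes, hormones, Reg lectins and colonic transport. Genes named outside the rule are marked in the text, and some genes the rule names are not reported here.

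The results were recomputed with DESeq2 1.42.0, with library totals in place of TMM, without the filter on low counts, without the DMBA+TAM libraries, with only the 4 TAM libraries, with a replicate block, with a size limit of 1 on the log2 scale, and by leaving out each library in turn, where the lone library of a group is assumed to vary like the others. The edgeR procedure was also run on simulated data, whose outcome is not given here. Tables and plots used Python 3.11.15, pandas 2.3.3, NumPy 2.4.6, SciPy 1.17.1 and matplotlib 3.10.9.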

Additional observations from a re-analysis of the deposited data

Results flagged for a closer look

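Each value here is the log2 fold change of TAM long over TAM short less that of DMBA over control, for genes the text names whose difference between the contrasts passed the quasi-likelihood test in edgeR after Benjamini-Hochberg adjustment. These results were singled out because the effect differed between the TAM and the DMBA contrast. The 5 largest positive values under the level rule were 11.46 for Fabp1, 9.74 for Slc5a4a, 7.15 for Adh4, 6.82 for Slc23a1 and 6.37 for Aadac, where Slc5a4a and Adh4 had no count in either DMBA library, so that their values are fitted against a group at 0 and are neither sizes nor bounds, and their order among the 5 is not read. The 5 largest negative values under the level rule were -11.62 for Fabp6, -8.07 for Pla2g4c, -6.73 for Slc25a48, -6.64 for Hoxb9 and -6.43 for B3gnt7.

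Among genes of absorption, the difference was 2.57 for Fabp2, 1.14 for Dgat1, 2.82 for Apob, 1.52 for Slc5a1, 2.06 for Khk, 1.72 for Slc6a19 and 3.79 for Rbp2, and it was -5.74 for Slc6a14 and -3.86 for Slc40a1. Genes of colonic transport and surface had 2.28 for Car2 and 2.81 for Guca2b, against -2.01 for Hsd11b2, -3.38 for Slc5a8, -3.12 for Retnlb, -1.22 for Ceacam1 and -1.27 for Muc2. The transcription factors had -1.23 for Cdx1, 1.22 for Hnf4g, -2.42 for Tfcp2l1, 1.35 for Creb3l3, -5.92 for Pax4, -0.68 for Irf1, -0.69 for Xbp1 and 1.89 for Fos. Hormone genes had -2.21 for Pyy, -2.39 for Tac1, 2.40 for Chga and 1.64 for Chgb. Genes of defence and repair had -6.29 for Saa1, -1.08 for Tgm2, -1.56 for Ly6a, 2.31 for Il33 and 2.57 for Klrd1. Genes of metabolism and export had -1.56 for Cyp51, -1.62 for Hmgcs1, 0.96 for Hadhb, 1.79 for Ces2c, 2.26 for Cyp3a13 and 3.28 for Abcc2. Of these, Slc23a1, Fabp1, Slc40a1, Cdx1, Pyy and Chga did not pass the test between TAM long and TAM short themselves. With 2 libraries in each group, the group alone does not show which of 2 unlike replicates is unusual. The 2 DMBA libraries were unlike each other in several lists. The exocrine pancreas sum was 49.7 and 6397 normalized CPM in DMBA, 58.4 and 82.2 in TAM long and 9.47 and 9.07 in TAM short. Sums in DMBA were also 298 and 4135 for Reg lectins, 2634 and 13446 for Paneth cell genes and 3361 and 8795 for B and plasma cell genes. Other lists were closer, such as segment transcription factors with 3362 and 3199.5. Both DMBA libraries enter each value above.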

How the results depend on the processing

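Between TAM long and TAM short 6835 genes passed, and DESeq2 (6265), library size scaling (6771), no filter (7104), the fit without the DMBA+TAM libraries (7129), the 4 TAM libraries alone (7671) and the replicate block (6759) stayed within 1.5 times of it. Requiring a change of at least 1 on the log2 scale left 3919, of which 1430 lower and 63.5% higher. Library size scaling left 2039 lower, and 69.9% of its calls were higher. Leaving out 1 library gave 4258 to 5018 genes, 2166 to 2660 higher and 2092 to 2358 lower. The replicate numbers did not pair the libraries (correlation of deviations of -0.0379 between TAM long and TAM short with the same number, and from -0.0414 to 0.26 over the 10 pairs of groups, highest between TAM long and DMBA). The difference between the TAM and DMBA contrasts passed for 924 genes, for 939 with the replicate block, for 2025 without a filter (980 positive and 1045 negative), for 1355 with DESeq2 (713 positive), and for 825 with library size scaling, where 39.3% were positive against 51.3%. Leaving out 1 library gave 179 to 1618 genes, 81 to 770 positive and 98 to 848 negative, with 345 and 202 without control replicates 1 and 2, 1008 without DMBA replicate 2, 342 without TAM short replicate 1, and 319 and 473 without TAM long replicates 1 and 2. Ppp2r1a kept its direction, with 0.46 (adjusted p = 0.0206) under library size scaling, 0.23 with the replicate block and 0.14 to 0.31 without single libraries. The cause of these moves was not tested, beyond that leaving out a library leaves fewer samples.

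Of 218 genes named between TAM long and TAM short, 179 passed the test, and none of these changed direction under any alternative run. Their calls were lost for 5 with DESeq2 (Cyp3a25, Fgf15, Klrd1, Ppp2r5e and Slc51a), for 9 with library size scaling (Clca3b, Gata6, Nr1h4, Pcna, Ptpa, Sct, Slc51a, Slc5a8 and Strn), for 2 without a filter (Klrd1 and Ppp2r5e), for 3 without the DMBA+TAM libraries (Fth1, Hoxb5 and Slc51a), for 1 with the 4 TAM libraries alone (Fth1), for 1 with the replicate block (Ppp2r5e), and for 28 under the size limit of 1 on the log2 scale. Calls were gained for 17 without a filter (Atp12a, Fabp1, Ftl1, Hoxb4, Hoxb6, Hoxb7, Hoxb8, Hoxb13, Hoxd8, Irf7, Mep1a, Nts, Osr2, Pyy, Reg4, Slc10a2 and Tff3), for 5 with DESeq2 (Atp12a, Hoxd8, Irf7, Krt8 and Mep1a), for 5 with library size scaling (Cdx1, Ftl1, Irf7, Ppp2ca and Pyy), for 4 with the replicate block (Atp12a, Hoxb13, Mep1a and Slc10a2), for 7 with the 4 TAM libraries alone (Atp12a, Hoxb13, Irf7, Mep1a, Pyy, Reg4 and Tff3), for 4 without TAM long replicate 1 (Fabp1, Osr2, Slc10a2 and Slc40a1) and for 2 without TAM long replicate 2 (Ftl1 and Hoxd8). Leaving out each TAM library in turn, 136 calls were kept throughout and 43 were lost at least once, 35 and 36 without TAM short replicates 1 and 2 and 25 and 22 without TAM long replicates 1 and 2, at adjusted p from 0.0531 (Hoxc4) to 0.534 (Fth1), both without TAM long replicate 1. Gata6, Pcna, Ppp2r2b, Ppp2r5e and Slc5a8 lost their call without any 1 of the 4. Lost without 3 of the 4 were Cd74, Cela1, Ces2c, Chgb, Clca3b, Fth1, Hadhb, Hoxb5, Hoxc4, Hoxd4, Hoxd9, Hoxd11, Il33, Klrd1, Krt18, Krt20, mt-Co1, Nr1h4, Oas2, Pecam1, Pla2g4c, Sct, Slc51a, Tgm3 and Trpv6.

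Genes that changed direction had not passed the test. With library size scaling these were Slc40a1 at 0.14, Cldn3 at 0.08, Gcg at 0.19, Sst at 0.08, Lyz2 at 0.13 and Hoxa4 at 0.19. Without single libraries the values ran from -1.28 to 0.21 for Slc23a1, -0.77 to 0.35 for Slc40a1, -0.01 to 0.16 for Cdx2, -0.17 to 0.29 for Zg16, -0.20 to 0.10 for Gcg, -1.83 to 0.08 for Nts, -0.18 to 0.25 for Ppp2r1b, -0.09 to 0.23 for Igha, -0.23 to 0.48 for Vip, -4.72 to 0.86 for Hoxa4, -0.70 to 1.48 for Hoxb7 and -0.81 to 1.70 for Hoxb8. Of 88 counts of list members called, 7 moved by over 1.5 times with DESeq2, 10 with library size scaling, 15 without a filter, 4 with the replicate block and 16 to 25 without single libraries. With 2 libraries a group, small differences were not detectable, and genes at 0 in a TAM group have a bound in place of a fold.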
